A study of Mus musculus with 16 samples.

Results

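Haematopoietic stem cells (HSCs) of the central bone marrow were compared between mice that lack Gfra2 and wild-type (WT) mice. The libraries were chosen by group alone, as given by the labels and the sample lists of the study. They were all those of the central compartment whose counts could be placed: 3 from Gfra2-/- mice and 4 from WT mice. They make up 7 of the 15 libraries of the series that could be placed in a group. The labels name a further Gfra2-/- central sample, for which no column of counts could be placed. All genes of the count table were described, 46078 in all, of which 11772 had enough reads to be tested. Each library was made from a pool of 30 cells sorted as lineage-negative, Sca1+, c-Kit+ (LSK) CD48- CD150+, with spike-in RNA added at lysis. Central marrow is the fraction inside the shafts of tibia, femur and humeri, taken apart from the endosteal fraction next to the bone. All mice were on a C57/Bl6 background, the Gfra2 deletion is a whole-body one, no group received a treatment, and the labels give neither age nor sex, although the study describes its mice as matched for both. The study calls the pools of a group biological replicates, but the labels do not say which came from separate animals, so p-values measure the spread between these pools, which may be partly technical.

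HSCs sit at the top of blood formation and are mostly held out of the cell cycle by signals from their bone marrow niche. Gfra2 encodes GFRα2, the receptor that binds neurturin and signals together with the tyrosine kinase RET, and it is needed for the growth of many cholinergic (acetylcholine-releasing) nerve fibres. A Gfra2-/- mouse therefore serves as a model of reduced cholinergic innervation. The comparison asks how RNA levels of HSCs in the central marrow differ when that innervation is deficient. Because the knockout affects every cell of the mouse, an effect on HSCs and an effect on their surroundings cannot be told apart here.

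Gfra2 itself was barely read in any pool. It had 0, 0, 4 and 0 reads in WT libraries A to D and 0, 1 and 0 reads in Gfra2-/- libraries A to C. A loss of Gfra2 RNA was thus not detectable at this depth, since up to 3 reads are compatible with a count of 0. The other genes of the GDNF receptor family gave no test either, as 0 of 11 listed receptors and ligands passed the filter on low counts and 4 had no read in any of the 7 libraries. Ret, the signalling partner of GFRα2, had 3 reads in 1 WT library and 0 in all others. Nrtn, the gene of its ligand neurturin, had 7, 0, 2 and 0 reads in the WT libraries and 10, 0 and 0 in the Gfra2-/- libraries.

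The pools carried the transcripts that the sort selects for. Kit lay at 490, 692, 547 and 665 counts per 1000000 TMM-scaled reads on genes (CPM) in the WT libraries and at 801, 718 and 502 CPM in the Gfra2-/- libraries. Slamf1, which encodes CD150, was found in all 7 libraries, with 7 to 86 reads in WT and 305 to 386 in Gfra2-/-. Cd48, which the gate should leave out, was low but not at 0 everywhere. It had 1, 0, 13 and 16 reads in WT and 0, 57 and 125 in Gfra2-/-. In such pools, fewer cells of a type and less RNA per cell cannot be told apart.

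The genotypes differed in depth. Reads on genes ranged from 826487 to 3367289 in the WT central libraries and from 7649803 to 14716308 in the Gfra2-/- central libraries (exact permutation test, two-sided, p = 0.0286, the smallest p that 3 libraries against 4 allow). Reads that could not be aligned made up 40.7 to 65.6% of the WT libraries and 25.5 to 36.4% of the Gfra2-/- libraries (exact permutation test, p = 0.0571), and aligned reads outside annotated genes 10.6 to 17.6% and 20.2 to 24.6% (exact permutation test, p = 0.0571). Between 11951 and 14432 genes were detected in WT and between 15781 and 16761 in Gfra2-/-. When each library was thinned to 826487 reads, 11951 to 12759 genes remained detected in WT and 13307 to 13770 in Gfra2-/- (exact permutation test, p = 0.0286). The 100 most abundant genes held 28.7 to 31.6% of reads in WT and 24.1 to 26.7% in Gfra2-/-, again without overlap (exact permutation test, p = 0.0286). Spike-in RNA gave 0.421 to 7.10% of reads in WT and 0.240 to 1.05% in Gfra2-/- (exact permutation test, p = 0.114). WT library D and Gfra2-/- library C stood apart from the others of their genotype by a spike-in share under 0.5%. The depth, the aligned share and the genotype moved together, and their parts in the results below cannot be told apart.

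Few genes separated the genotypes at a false discovery rate (FDR) of 0.1. In edgeR's quasi-likelihood test with Benjamini-Hochberg adjustment, 6 of 11772 genes passed, or 0.0510%. Transcripts of the endoplasmic reticulum chaperone gene Canx, of the mitochondrial genes mt-Nd2 and mt-Nd6 and of the rRNA-related gene Gm26917 fell in Gfra2-/- HSCs, whereas mt-Co1 and the rRNA-related CT010467.1 rose. All 6 also passed in DESeq2 and in limma voom, which each called more genes from the same libraries. None of the 6 passed with any WT library left out, or with scaling to the spike-in RNA. WT libraries A and C fell short of the study's quality cut-offs, by the measures that stood in for them here. Without both, none of the 6 passed either. The median log2 fold change over all genes tested was 0.03, with 6045 genes higher and 5727 lower in Gfra2-/- libraries.

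Canx levels lay close together within the knockout. This gene encodes calnexin, a lectin chaperone that retains newly made glycoproteins in the endoplasmic reticulum until they are folded, and it lies on chromosome 11 (50293961 to 50325673, minus strand, GRCm38). It measured 1684, 1169, 1556 and 1336 CPM in WT libraries A to D and 475, 498 and 463 CPM in Gfra2-/- libraries A to C. Every Gfra2-/- library thus lay under every WT library. The means were 1436 ± 229 CPM (SD, n = 4) and 479 ± 18.0 CPM (SD, n = 3), and the log2 fold change was -1.58 ± 0.23 (SE; edgeR FDR = 0.0590). With any 1 of the 7 libraries left out, the log2 fold change was -1.67 to -1.50 and Canx no longer passed (edgeR FDR 0.132 to 0.467).

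**Figure D1:**
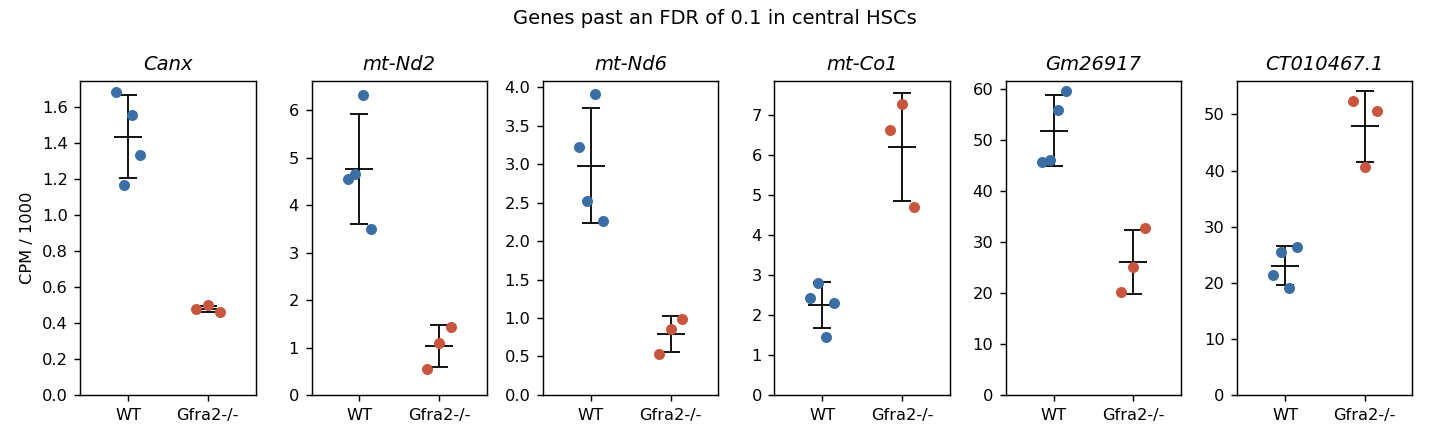
Levels in CPM divided by 1000, on a linear axis from 0, of the 6 genes past the FDR of 0.1, with each central library as a point and lines for the group mean and SD. Canx lay at 463 to 498 CPM in the 3 Gfra2-/- libraries and at 1169 to 1684 CPM in the 4 WT libraries, and none of the 6 genes had overlapping groups.

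Other genes of the endoplasmic reticulum folding machinery showed no common direction. Of 34 tested chaperones and unfolded protein response genes, 15 were higher and 19 lower, with a median log2 fold change of -0.06 beside 0.03 for all genes. Canx alone passed the FDR. The disulphide isomerase gene Pdia4 measured 33.4, 82.0, 29.2 and 75.3 CPM in WT and 189, 107 and 226 CPM in Gfra2-/- (log2 fold change 1.65 ± 0.54, edgeR FDR = 0.381). Xbp1, a transcription factor that drives the unfolded protein response, measured 12.7, 88.7, 55.8 and 105 CPM in WT and 274, 120 and 244 CPM in Gfra2-/- (1.69 ± 0.62, edgeR FDR = 0.458). Neither passed, although the groups did not overlap for either gene. In the list of 34, groups did not overlap for 2 genes in the higher direction and 3 in the lower, beside 7.62% and 4.71% of all genes tested. Calr, which encodes calreticulin, the soluble relative of calnexin, overlapped between groups at 299 to 518 CPM in WT and 248 to 357 CPM in Gfra2-/-. The number of Calr reads per Canx read was 0.192 to 0.353 in WT and 0.498 to 0.771 in Gfra2-/-, a ratio within each library that does not depend on scaling. Canx was chosen for its low level in Gfra2-/-, so this ratio is no separate support for its fall.

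The promoters of Canx and of Hspa5, the gene of the master chaperone BiP, both hold the ER stress element, the letters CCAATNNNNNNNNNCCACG that the unfolded protein response factors ATF6 and NF-Y are known to bind. They are shown because Canx fell while other genes with the element did not pass. Both sequences are RefSeq sequence of GRCm38.p6, 250 bases up to the transcription start, 5′ to 3′ on the strand of the gene, with the element in capitals. Canx is read from chr11:50325674-50325923 on the minus strand and Hspa5 from chr2:34771840-34772089 on the plus strand.
Canx: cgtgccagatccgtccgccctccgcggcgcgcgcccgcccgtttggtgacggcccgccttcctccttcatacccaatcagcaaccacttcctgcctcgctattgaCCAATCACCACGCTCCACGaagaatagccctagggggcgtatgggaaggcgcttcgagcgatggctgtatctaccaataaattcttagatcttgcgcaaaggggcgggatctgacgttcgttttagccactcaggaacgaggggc
Hspa5: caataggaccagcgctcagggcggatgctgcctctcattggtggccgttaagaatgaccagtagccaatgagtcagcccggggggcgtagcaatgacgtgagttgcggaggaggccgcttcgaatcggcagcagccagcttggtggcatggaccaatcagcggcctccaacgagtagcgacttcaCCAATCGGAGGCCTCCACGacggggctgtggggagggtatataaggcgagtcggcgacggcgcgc
The element began 145 bases before the start of Canx and 65 bases before that of Hspa5. Searched on both strands, it occurred in 35 of 27025 promoters (0.130%), among them 8 of the 30 listed endoplasmic reticulum genes that had a promoter sequence. The 7 beside Canx were Calr, Hspa5, Hsp90b1, Pdia6, Dnajc3, Creld2 and Syvn1. Hspa5 lay at 387, 404, 645 and 377 CPM in WT and at 473, 300 and 470 CPM in Gfra2-/-, so the groups overlapped. A match is a description of these letters only.

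Mitochondrially encoded transcripts shifted against each other. These genes encode subunits of the respiratory chain and are transcribed as long polycistronic RNAs that are then cut. Of 13 such protein-coding genes, 12 were tested, of which 1 was higher and 11 lower in Gfra2-/-, with a median log2 fold change of -0.76. mt-Co1 rose, mt-Nd2 and mt-Nd6 fell, and 4.60% and 4.14% of all genes tested had an unadjusted p under 0.05 in the higher and lower direction, compared with 1 and 5 of these 12. Groups did not overlap for 1 gene in the higher direction and for 7 in the lower, beside 7.62% and 4.71% of all genes tested.

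mt-Nd2 encodes a subunit of complex I. It measured 4564, 4666, 6332 and 3503 CPM in WT and 554, 1101 and 1423 CPM in Gfra2-/-, with a log2 fold change of -2.22 ± 0.32 (edgeR FDR = 0.0590). mt-Nd6, the complex I gene on the other strand of the mitochondrial genome, measured 3229, 2521, 3913 and 2257 CPM in WT and 536, 862 and 987 CPM in Gfra2-/- (-1.91 ± 0.28, edgeR FDR = 0.0590). Both were below every WT library in each Gfra2-/- pool. As annotated, mt-Nd6 overlaps mt-Nd5 on the opposite strand for a few bases. Without strand, reads anywhere in mt-Nd6 could come from RNA of either strand, so its count may not measure its own transcript alone. mt-Co1, the catalytic subunit of complex IV, went the other way. It measured 2427, 2793, 1452 and 2293 CPM in WT and 6627, 7262 and 4682 CPM in Gfra2-/- (1.47 ± 0.23, edgeR FDR = 0.0871).

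The remaining abundant mitochondrial genes lay between these extremes. mt-Nd4 ranged from 3038 to 4207 CPM in WT and from 1307 to 2185 CPM in Gfra2-/- (log2 fold change -1.001 ± 0.22, edgeR FDR = 0.251), and mt-Nd1 from 3944 to 7606 and from 2706 to 3804 CPM (-0.90 ± 0.22, edgeR FDR = 0.300). mt-Nd5 was closer, at 3821 to 5936 CPM in WT and 2626 to 3622 CPM in Gfra2-/- (-0.57 ± 0.19, edgeR FDR = 0.409). mt-Cytb, a subunit of complex III, overlapped fully, at 4863 to 6559 and 4950 to 5755 CPM. mt-Co2 and mt-Co3 each held under 100 CPM in all libraries (11.9 to 18.7 and 32.6 to 83.1 CPM in WT, 9.30 to 11.8 and 14.2 to 21.98 CPM in Gfra2-/-). Reads that match nuclear copies of mitochondrial DNA equally well are discarded when only unique alignments are kept, and how far this lowered each gene was not tested. The 16S rRNA gene mt-Rnr2 ranged from 37167 to 46146 CPM in WT and from 24616 to 37557 CPM in Gfra2-/- (-0.45 ± 0.14, edgeR FDR = 0.366).

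The opposite movement was plain within each library. For each mt-Nd2 read, WT libraries A to D had 0.532, 0.599, 0.229 and 0.655 mt-Co1 reads, and Gfra2-/- libraries A to C had 11.95, 6.60 and 3.29. Such a ratio is free of the scaling between libraries, and every Gfra2-/- library was above every WT library. Both genes were chosen as called in opposite directions without overlap. The separation of their ratio follows from that choice and is no separate support. In the endosteal libraries of the same series, the ratio was 1.63 to 6.46 in WT and 7.95 to 18.0 in Gfra2-/-. The WT endosteal libraries, which are deeper than the WT central ones, thus reached the values of the central Gfra2-/- libraries. The part of depth in the ratio was not tested.

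**Figure D2:**
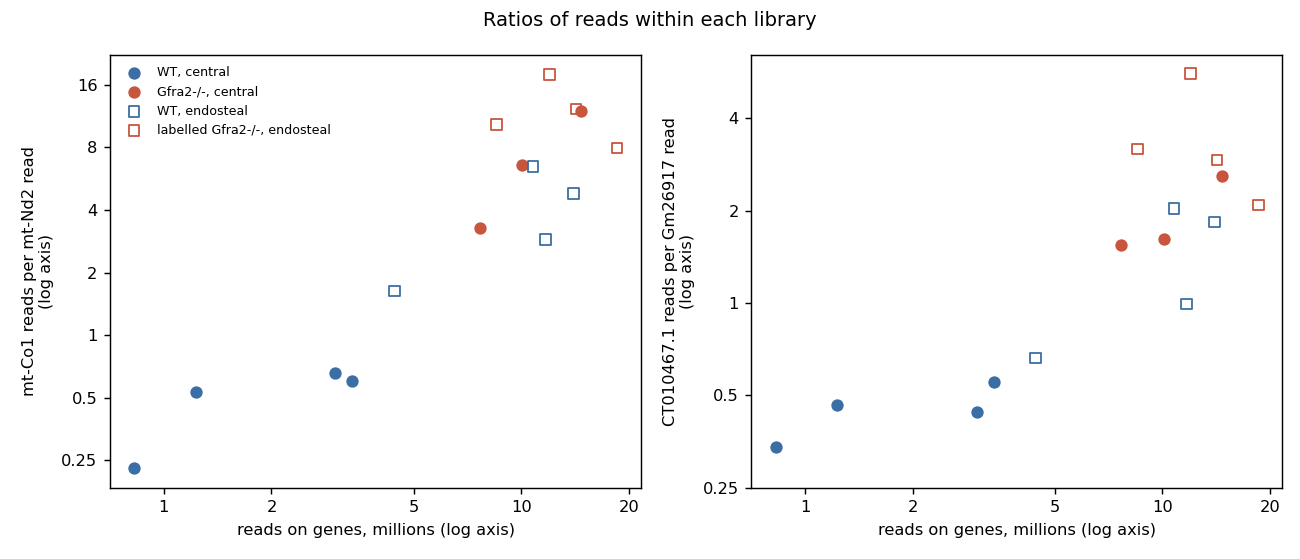
Within-library read ratios on log axes, mt-Co1 reads per mt-Nd2 read and CT010467.1 reads per Gm26917 read, against the reads on genes of the library, for all 15 libraries coloured by group. The 4 WT central libraries held the fewest reads and the lowest ratios, 0.229 to 0.655 for mt-Co1 per mt-Nd2 read, and the endosteal libraries of both genotypes had higher ratios.

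Both rRNA-related genes past the FDR lie side by side on chromosome 17, in a stretch related to ribosomal RNA. Gm26917 is annotated at 39843013 to 39846341 on the plus strand and CT010467.1 at 39846353 to 39848827 on the minus strand (GRCm38). Gm26917 measured 45700, 46083, 55908 and 59554 CPM in WT and 20224, 25101 and 32689 CPM in Gfra2-/- (log2 fold change -0.99 ± 0.16, edgeR FDR = 0.0871). CT010467.1 measured 21331, 25501, 19022 and 26307 CPM in WT and 52438, 40651 and 50529 CPM in Gfra2-/- (1.06 ± 0.13, edgeR FDR = 0.0549). As a result, CT010467.1 reads per Gm26917 read were 0.340 to 0.553 in WT and 1.55 to 2.59 in Gfra2-/-, whereas the summed share of rRNA-related genes overlapped between the groups (exact permutation test, p = 0.457). The separation of the ratio follows from choosing genes called in opposite directions. The gene Gm42418 overlaps CT010467.1 on the opposite strand and measured 1898 to 6455 CPM in WT and 186 to 975 CPM in Gfra2-/- (-3.12 ± 0.63, edgeR FDR = 0.224). Because the libraries carry no strand, reads in the shared stretch cannot be told apart, and the counting sets such reads aside as ambiguous. Ambiguous reads made up 4.08 to 8.96% of the WT central libraries and 7.23 to 9.25% of the Gfra2-/- ones.

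The spread between pools was wide. The biological coefficient of variation, the replicate spread that edgeR estimates beyond counting error, was 0.788 in the Gfra2-/- group and 0.964 in the WT group. Before adjustment, 541 genes had p under 0.05 in the higher direction and 487 in the lower. DESeq2, with which the study normalized its counts, called 361 higher and 364 lower at the same FDR, or 2.56% and 2.58% of 14116 genes. Of its calls that edgeR tested, 548 of 585 had an unadjusted edgeR p under 0.05. The smallest p-values outside the 6 called genes are described next, followed by groups of genes, and no other gene named below passed edgeR's FDR.

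On the higher side, Rnh1, an inhibitor of secreted ribonucleases, measured 28.02, 53.8, 27.9 and 43.4 CPM in WT and 255, 172 and 323 CPM in Gfra2-/- (log2 fold change 2.69 ± 0.46, edgeR FDR = 0.136). Kmt2d, a histone H3 lysine 4 methyltransferase, measured 108, 70.0, 95.6 and 124 CPM in WT and 644, 300 and 278 CPM in Gfra2-/- (2.04 ± 0.41, edgeR FDR = 0.215). Hadh, an enzyme of fatty acid β-oxidation, measured 53.3, 57.8, 73.0 and 42.8 CPM in WT and 288, 145 and 246 CPM in Gfra2-/- (2.00 ± 0.44, edgeR FDR = 0.251). Several others were nearly absent from WT pools, with their lowest values near the counting floor. In WT library A, 1 read equalled 0.904 CPM, and in WT library D, 2 reads equalled 0.679 CPM. Genes this low in WT can pass the filter on low counts through the deeper Gfra2-/- libraries alone. Smyd2, a lysine methyltransferase, reached 0.679 to 7.34 CPM in WT and 62.8 to 120 CPM in Gfra2-/-, and Tmem115, a Golgi membrane protein gene, 0.679 to 4.59 and 38.3 to 98.2 CPM. Rmc1 ranged from 0.904 to 7.97 CPM in WT and from 54.1 to 112 CPM in Gfra2-/-, and Cyb561a3 from 0.612 to 2.38 and from 25.3 to 82.4 CPM. The noncoding Gm19590 ranged from 68.5 to 92.3 and from 168 to 352 CPM. Smyd2, Rmc1, Cyb561a3 and Slc34a2 (below) overlap other annotated genes, and reads in the shared stretches cannot be assigned without strand.

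On the lower side, most of the genes were abundant. Hnrnpa0, an RNA-binding protein gene, measured 392, 351, 608 and 406 CPM in WT and 100, 126 and 112 CPM in Gfra2-/- (log2 fold change -1.96 ± 0.34, edgeR FDR = 0.136). Ptma, which encodes the chromatin-associated prothymosin alpha, measured 498, 463, 738 and 287 CPM in WT and 130, 119 and 139 CPM in Gfra2-/- (-1.94 ± 0.37, edgeR FDR = 0.215). H2afy, the gene of the histone variant macroH2A1, ranged from 745 to 1075 CPM in WT and from 246 to 446 CPM in Gfra2-/- (-1.49 ± 0.29, edgeR FDR = 0.215). The DNA-binding protein gene Nucks1 ranged from 299 to 679 and from 78.8 to 166 CPM. Rplp1 and Rplp2, acidic stalk proteins of the ribosome, and Atp5e, a subunit of ATP synthase, completed this set and are given with their groups below.

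Slc34a2, which encodes a sodium-dependent phosphate transporter, took 47115, 6045, 37748 and 12142 CPM in WT and 1278, 941 and 3946 CPM in Gfra2-/- (log2 fold change -3.65 ± 0.72, edgeR FDR = 0.215). Its read numbers as counted gave another picture, with 52134, 19765, 28432 and 35785 reads in WT and 20105, 10277 and 30985 in Gfra2-/-. The groups overlapped in reads and did not overlap in CPM. This holds more widely for the lower side: of the 487 genes lower at an unadjusted p under 0.05, 105 had a lower median number of reads in Gfra2-/- than in WT, whereas all 541 higher genes had a higher one. Every Gfra2-/- library held more reads on genes than any WT library. The contrast of these counts follows from depth and does not make 1 side better supported. Scaled to the spike-in RNA instead, all genes tested had a median of 1.75 on the log2 scale, and 185 of those 487 genes were below 0. On that scale Canx stood at 0.13, mt-Nd2 at -0.02, mt-Nd6 at 0.19 and Gm26917 at 0.66, so the fall of these 4 genes holds relative to the other genes of the library and was not found per spike-in read. mt-Co1 stood at 2.89 and CT010467.1 at 2.59.

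Some genes were read in each Gfra2-/- pool and in no WT pool. At 10 or more reads in every Gfra2-/- library and 0 in all WT libraries, there were 71 genes, of which 23 were protein coding, and 0 genes showed the reverse. C8g, a complement component gene, had 192, 490 and 40 reads in Gfra2-/- libraries A to C. Themis2, a signalling adaptor of immune cells, had 245, 25 and 190 reads, Stag3, a cohesin subunit of meiosis, had 37, 60 and 347, and Fen1, the flap endonuclease of DNA replication, had 65, 36 and 23. C8g and Fen1 overlap genes on the opposite strand. These genes were named for this pattern, so it gets no test. After thinning to equal depth, 48 of the 71 genes kept at least 1 read in every Gfra2-/- library. At that depth 138 genes were read in each Gfra2-/- library and no WT library, and 27 genes in each WT library and no Gfra2-/- library.

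Fold changes depended on how abundant a gene was. When the tested protein-coding genes were divided into 5 classes of equal size by mean level, the median log2 fold change went from 0.51 in the least abundant class through 0.22, 0.07 and -0.04 to -0.21 in the most abundant class. The share of genes higher at an unadjusted p under 0.05 went from 8.28% in the lowest class to 3.004% in the highest, and the share lower went from 1.55% to 10.5%. Thinning every library to the same number of reads left the order in place, with medians of 0.54, 0.14, 0.00, -0.12 and -0.28. When only genes with 10 or more reads in every library were kept, the lowest class stood at -1.20. That filter keeps a low gene only where the shallow WT libraries also read it at least that often. The 5 classes by transcript length had medians between -0.02 and 0.14.

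**Figure D3:**
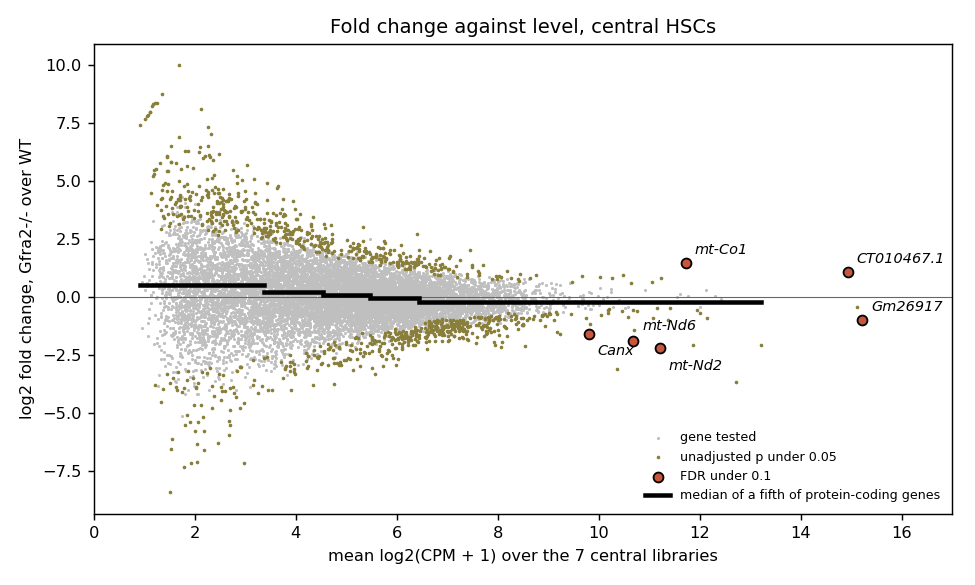
Log2 fold change, Gfra2-/- over WT, of each tested gene against its mean level in log2 CPM, with the 6 called genes labelled and black lines at the medians of 5 classes of protein-coding genes. Median fold changes fell from 0.51 in the least abundant class to -0.21 in the most abundant.

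Genes of cell division leaned lower in Gfra2-/- pools. These genes are switched on in the S, G2 and M phases, and a low level is a usual feature of resting HSCs. Of 34 mitosis genes tested, 3 were higher and 31 lower, with a median log2 fold change of -1.23, and 0 and 7 had an unadjusted edgeR p under 0.05, beside 4.60% and 4.14% of all genes tested. None passed edgeR's FDR and DESeq2 called 2 lower, beside 2.58% of all genes. The summed level of the list was 1664, 1604, 2674 and 5036 CPM in WT libraries A to D and 1195, 554 and 1896 CPM in Gfra2-/- libraries A to C, so the groups overlapped and WT library D stood highest. Without WT library D, 11 were higher and 23 lower, the median was -0.85 and 1 gene had an unadjusted p under 0.05. Without Gfra2-/- library B, 8 were higher and 26 lower, with a median of -1.002 and 1 gene, and without Gfra2-/- library C 1 was higher and 33 lower, with a median of -2.07. With spike-in size factors, the list median was -1.80 relative to that of all genes.

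Single mitosis genes showed the same dependence. Top2a, which untangles DNA before division, measured 395, 354, 349 and 702 CPM in WT and 273, 61.7 and 224 CPM in Gfra2-/- (log2 fold change -1.27 ± 0.49, edgeR FDR = 0.480). Cenpf, a kinetochore protein gene, measured 206, 94.5, 15.9 and 148 CPM in WT and 26.2, 8.24 and 9.42 CPM in Gfra2-/- (-2.99 ± 0.88, edgeR FDR = 0.334), with WT library C inside the range of the knockout. Tpx2, a spindle assembly factor gene, lay at 27.1, 27.2 and 37.2 CPM in WT libraries A to C but at 251.1 CPM in WT library D, against 1.83 to 16.05 CPM in Gfra2-/-.

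DNA replication genes leaned the same way, with 11 higher and 24 lower of 35 tested and a median of -0.55. The median was -0.27 without WT library C, -0.32 without WT library D, -0.33 without Gfra2-/- library A and -0.34 without WT library B. The helicase gene Mcm2 was the 1 with an unadjusted p under 0.05, at 268, 189, 714 and 314 CPM in WT and 187, 168 and 199 CPM in Gfra2-/- (log2 fold change -1.003 ± 0.45, edgeR FDR = 0.555), and DESeq2 called 0 of them. Over all genes tested, 4.14% were lower at that p. Among 23 quiescence regulators, 11 were higher and 12 lower (median -0.06). Tsc2, which restrains mTOR, measured 24.4 to 29.2 CPM in WT and 79.8 to 148 CPM in Gfra2-/- (2.13 ± 0.57, edgeR FDR = 0.318). Rbl2, the pocket protein p130 of resting cells, measured 7.80 to 54.2 and 104 to 175 CPM (2.12 ± 0.67, edgeR FDR = 0.360), while its relative Rbl1 (p107), an S-phase gene, measured 82.1 to 228 and 44.5 to 55.4 CPM (-1.41 ± 0.55, edgeR FDR = 0.487). DESeq2 called Tsc2 and Rbl2 but not Rbl1, beside 2.56% of all genes called higher and 2.58% called lower.

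**Figure D4:**
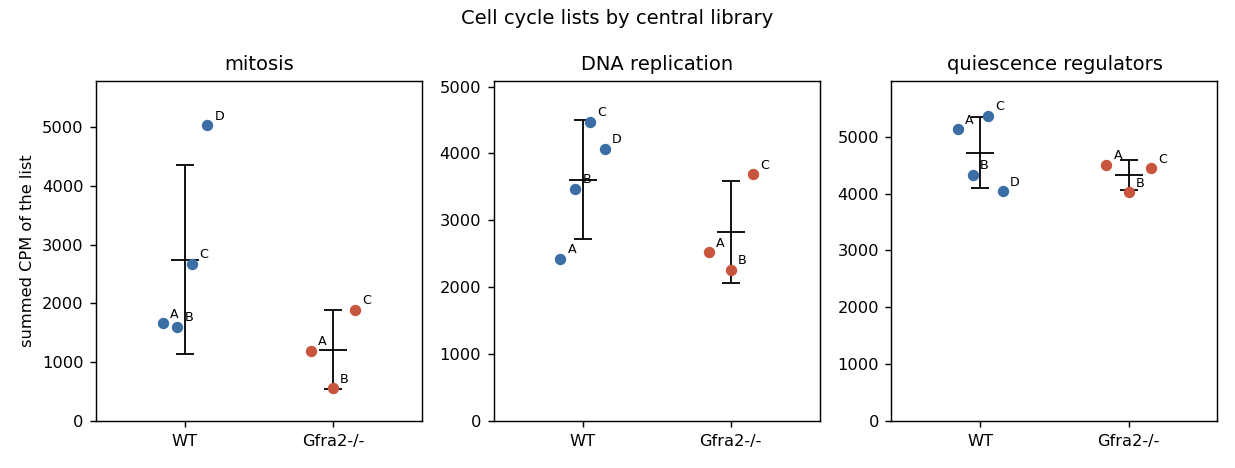
Summed CPM of the mitosis, DNA replication and quiescence lists, with each central library as a lettered point and lines for the group mean and SD. Mitosis genes summed to 5036 CPM in WT library D, against 1604 to 2674 CPM in the other WT libraries and 554 to 1896 CPM in the Gfra2-/- libraries.

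Genes of HSC identity overlapped between genotypes for the most part. Of 18 surface genes of the sort gate and of stem cells, 11 were higher and 7 lower (median 0.13). An unadjusted p under 0.05 was reached by 1 in each direction, beside 4.60% and 4.14% of all genes tested. Neither edgeR nor DESeq2 called any. Without Gfra2-/- library C, 6 were higher and 12 lower (median -0.25). The tetraspanin gene Cd63 measured 176 to 379 CPM in WT and 127 to 165 CPM in Gfra2-/- (log2 fold change -0.86 ± 0.38, edgeR FDR = 0.547), and the integrin gene Itga6 256 to 380 and 172 to 197 CPM (-0.65 ± 0.33, edgeR FDR = 0.612). Sca1, encoded by Ly6a, ranged from 116 to 532 CPM in WT and from 189 to 362 CPM in Gfra2-/-.

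Stem cell transcription factors were 13 higher and 21 lower of 34 tested, with a median of -0.27, and of -0.05 without WT library A. Spi1 (PU.1), which drives myeloid and lymphoid fates, measured 37.1, 24.2, 5.31 and 22.4 CPM in WT and 97.2, 82.7 and 98.2 CPM in Gfra2-/- (log2 fold change 2.05 ± 0.72, edgeR FDR = 0.426). DESeq2 called it higher, beside 2.56% of all genes. Tal1, a master regulator of HSC formation, measured 285, 142, 272 and 396 CPM in WT and 63.7, 98.1 and 179 CPM in Gfra2-/- (-1.27 ± 0.48, edgeR FDR = 0.470). Mllt3, a maintenance factor of HSCs, lay within 454 to 488 CPM in the knockout and spread from 195 to 456 CPM in WT. Its WT library A matched the knockout level.

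Receptors through which nerves could act on HSCs directly were scarcely read. Of 22 acetylcholine and noradrenaline receptor genes, 3 passed the filter and 10 had no read in any of the 7 libraries. Chrm1, a muscarinic receptor, measured 12.7, 1.22, 14.6 and 3.39 CPM in WT and 0.254, 0.275 and 1.40 CPM in Gfra2-/- (log2 fold change -3.58 ± 1.51, edgeR FDR = 0.525). The groups overlapped for Chrm1 and for the other tested members.

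Growth factor signalling genes differed by list. Of 26 genes of the RAS-ERK pathway, 13 were higher and 13 lower (median -0.02). Its adaptor gene Grb2 measured 219, 179, 336 and 287 CPM in WT and 87.7, 82.9 and 107 CPM in Gfra2-/- (log2 fold change -1.46 ± 0.39, edgeR FDR = 0.318). The kinase gene Mapk3 (ERK1) measured 120 to 266 CPM in WT and 21.7 to 62.9 CPM in Gfra2-/- (-1.93 ± 0.54, edgeR FDR = 0.318), and the downstream kinase gene Rps6ka1 28.4 to 70.9 and 137 to 191 CPM (1.55 ± 0.49, edgeR FDR = 0.364). All 3 were called by DESeq2, which called 2.56% of all genes higher and 2.58% lower. Of 20 ERK feedback and target genes, 6 were higher and 14 lower (median -0.69, and -0.38 without WT library A). The inhibitor gene Spred2 was the 1 with an unadjusted p under 0.05, at 16.6 to 70.5 CPM in WT and 4.85 to 9.55 CPM in Gfra2-/- (-2.53 ± 0.97, edgeR FDR = 0.482). At that p, 4.14% of all genes tested were lower. PI3K-AKT-mTOR genes were 16 higher and 11 lower of 27 (median 0.21, and -0.03 without Gfra2-/- library C).

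In other signalling lists, few genes stood apart. Notch pathway genes were 9 higher and 11 lower of 20 (median -0.20). The Myc network had 5 higher and 8 lower of 13 (median -0.37), and its antagonist gene Mnt measured 74.1 to 159 CPM in WT and 19.2 to 43.9 CPM in Gfra2-/- (log2 fold change -1.77 ± 0.59, edgeR FDR = 0.387). Among 19 genes of gp130 cytokine and JAK-STAT signalling, 13 were higher and 6 lower (median 0.15). Stat3 measured 255 to 440 CPM in WT and 151 to 198 CPM in Gfra2-/- (-0.92 ± 0.33, edgeR FDR = 0.453), and the gp130 gene Il6st 50.8 to 233 and 23.7 to 78.3 CPM (-1.46 ± 0.64, edgeR FDR = 0.545). TGF-β and BMP genes were 6 higher and 13 lower of 19 (median -0.09), with 0 at an unadjusted p under 0.05 and 0 called by edgeR or DESeq2.

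Adhesion and homing genes, by which HSCs hold on to the niche, were 15 higher and 5 lower of 20 (median 0.16). The integrin gene Itgb7 measured 24.4, 2.14, 5.31 and 0.339 CPM in WT and 25.3, 58.1 and 242 CPM in Gfra2-/- (log2 fold change 3.81 ± 1.22, edgeR FDR = 0.370). Itgb3, which marks HSCs and platelets, measured 269, 42.2, 145 and 123 CPM in WT and 44.1, 13.7 and 18.1 CPM in Gfra2-/- (-2.51 ± 0.73, edgeR FDR = 0.321). Gfra2-/- library A overlapped the WT range for Itgb3.

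Nuclear genes of the respiratory chain leaned lower, as did most mitochondrially encoded ones. Of 75 tested, 20 were higher and 55 lower with a median log2 fold change of -0.49, and 4 and 10 had an unadjusted p under 0.05, beside 4.60% and 4.14% of all genes. Without Gfra2-/- library A these were 0 and 4. None passed edgeR's FDR, and DESeq2 called 1 higher and 8 lower, beside 2.56% and 2.58% of all genes. Atp5e measured 893, 484, 1048 and 473 CPM in WT and 117, 166 and 226 CPM in Gfra2-/- (-2.10 ± 0.39, edgeR FDR = 0.215). The complex I gene Ndufa2 ranged from 362 to 904 CPM in WT and from 86.1 to 180 CPM in Gfra2-/- (-2.16 ± 0.44, edgeR FDR = 0.224), and the complex IV gene Cox6a1 from 267 to 430 and from 74.2 to 177 CPM (-1.54 ± 0.39, edgeR FDR = 0.307). Many of these genes are abundant, and the most abundant class of all protein-coding genes had a median of -0.21.

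Genes of the TCA cycle and fatty acid oxidation leaned the other way, with 22 higher and 11 lower of 33 (median 0.32). At an unadjusted p under 0.05 were 3 and 0, beside 4.60% and 4.14% of all genes tested. Hadh, given above, was among them, and citrate synthase, Cs, measured 59.6 to 106 CPM in WT and 142 to 176 CPM in Gfra2-/- (log2 fold change 0.97 ± 0.44, edgeR FDR = 0.560). DESeq2 called 1 of the list higher, beside 2.56% of all genes. Glycolysis and pentose phosphate genes were 16 higher and 12 lower of 28 (median 0.13). The aldolase gene Aldoa measured 117 to 281 and 412 to 508 CPM (1.13 ± 0.34, edgeR FDR = 0.357), whereas Pfkfb3, which makes the activator of glycolysis fructose-2,6-bisphosphate, measured 40.7 to 135 and 4.84 to 23.4 CPM (-2.63 ± 0.85, edgeR FDR = 0.372). Antioxidant enzymes were 7 higher and 16 lower of 23 (median -0.25), and the peroxiredoxin gene Prdx2 measured 359 to 620 CPM in WT and 169 to 311 CPM in Gfra2-/- (-1.18 ± 0.34, edgeR FDR = 0.318).

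Cytoplasmic ribosomal protein genes were lower in majority. For the large subunit 16 were higher and 31 lower of 47 tested (median -0.54), with 2 and 12 at an unadjusted p under 0.05, and for the small subunit 8 and 24 of 32 (median -0.45), with 1 and 9. None passed edgeR's FDR, and DESeq2 called 7 and 4, all lower. The shares over all genes were 4.60% and 4.14% at an unadjusted p under 0.05 and 2.56% and 2.58% in DESeq2, and 10.5% of the most abundant class of protein-coding genes were lower at that p. Without Gfra2-/- library A the small subunit median was -0.29. Rplp1 measured 2887, 2459, 2997 and 1950 CPM in WT and 637, 1139 and 1115 CPM in Gfra2-/- (log2 fold change -1.42 ± 0.26, edgeR FDR = 0.204). Rplp2 ranged from 657 to 1337 and from 254 to 367 CPM (-1.59 ± 0.32, edgeR FDR = 0.215), and Rps15 from 606 to 908 and from 226 to 362 CPM. Genes of this family share sequence with many processed pseudogenes, so the unique reads of a member are an uncertain measure of its level. Mitochondrial ribosome genes, in contrast, stood at 40 higher and 36 lower of 76 with a median of 0.08, and 1 and 0 had an unadjusted p under 0.05.

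RNA-binding and splicing genes were 13 higher and 38 lower of 51 (median -0.29), with 0 and 7 at an unadjusted p under 0.05, 0 called by edgeR and 5 called lower by DESeq2, beside 4.60% and 4.14% of all genes at that p and 2.58% called lower by DESeq2. Their summed level was 13010 to 13830 CPM in WT and 10797 to 10998 CPM in Gfra2-/-, without overlap. Many of these genes are abundant. The most abundant class of all protein-coding genes had a median of -0.21, with 10.5% lower at that p and 10.7% lower without overlap. Hnrnpa0 is given above, and the core spliceosome gene Snrpe measured 191 to 340 and 50.9 to 113 CPM (log2 fold change -1.46 ± 0.43, edgeR FDR = 0.334). Nucleolar and ribosome biogenesis genes were 18 higher and 22 lower of 40 (median -0.15). Dkc1, the pseudouridine synthase dyskerin, measured 397, 194, 386 and 460 CPM in WT and 129, 120 and 110 CPM in Gfra2-/- (-1.59 ± 0.38, edgeR FDR = 0.292), while the snoRNP gene Nop56 measured 11.3 to 30.7 and 60.9 to 124 CPM (1.98 ± 0.69, edgeR FDR = 0.425). Proteasome genes were balanced, with 21 higher and 20 lower of 41 (median 0.02), and so were autophagy and lysosome genes, with 26 higher and 22 lower of 48 (median 0.02). Hexa, a lysosomal hexosaminidase, measured 49.7 to 109 and 189 to 219 CPM (1.30 ± 0.42, edgeR FDR = 0.372).

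**Figure D5:**
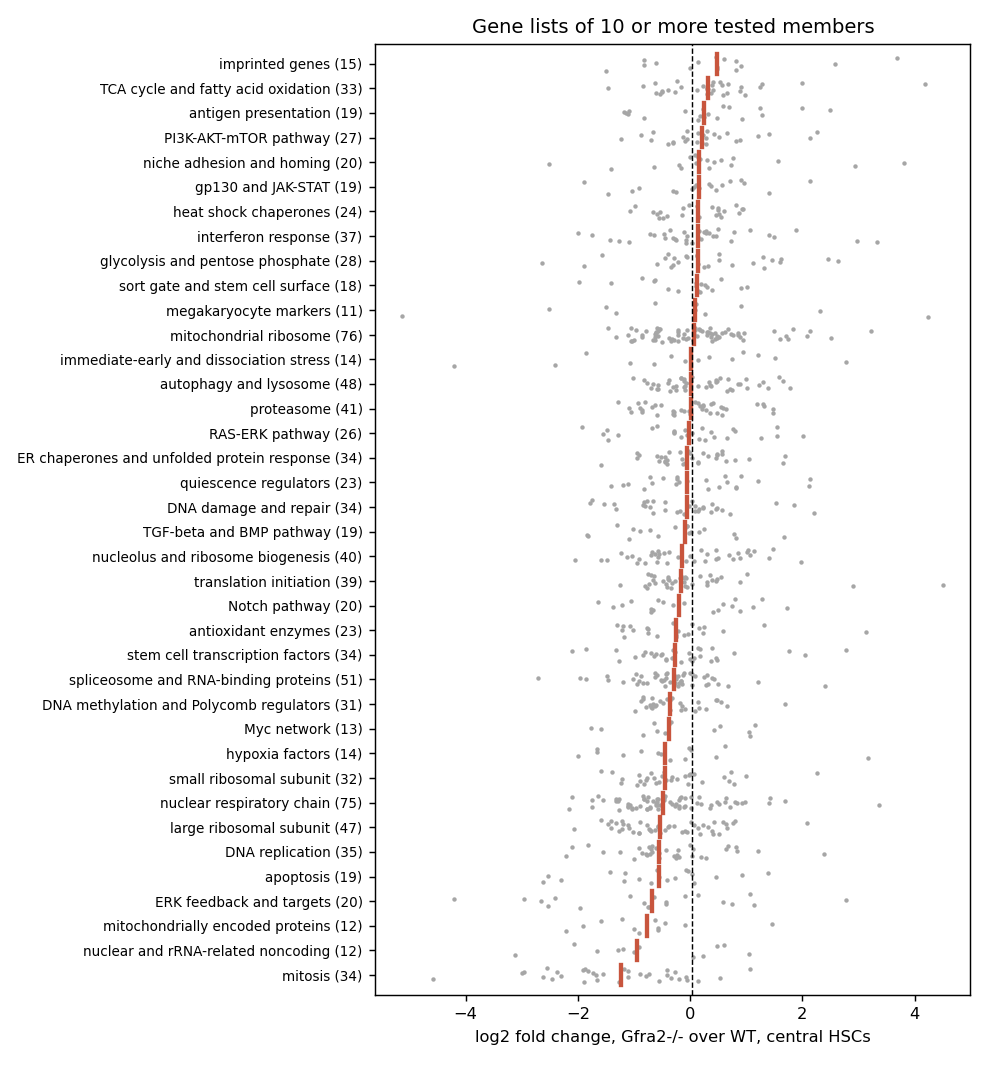
Log2 fold change, Gfra2-/- over WT, of the tested members of each list with 10 or more of them, as grey points in a row per list, with the list median as a red bar and the median over all genes as a dashed line. Mitosis genes had the lowest median among the larger lists, at -1.23, and the median over all genes tested was 0.03.

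Heat shock chaperones were 13 higher and 11 lower of 24 (median 0.14), and the abundant Hsp90ab1 measured 2932 to 3272 CPM in WT and 2190 to 2356 CPM in Gfra2-/- (log2 fold change -0.48 ± 0.16, edgeR FDR = 0.401). Immediate-early genes, which respond to the stress of dissociation, were 7 higher and 7 lower of 14 (median 0.02), with 0 at an unadjusted p under 0.05 and 0 called by edgeR or DESeq2. Apoptosis genes were 5 higher and 14 lower of 19 (median -0.56, and -0.35 without Gfra2-/- library B), with the initiator caspase gene Casp8 at 136 to 403 and 96.1 to 128 CPM (-1.16 ± 0.46, edgeR FDR = 0.502). DNA damage and repair genes were 16 higher and 18 lower of 34 (median -0.06). Among them Topbp1, an activator of the ATR checkpoint, measured 167 to 369 CPM in WT and 57.4 to 111 CPM in Gfra2-/- (-1.75 ± 0.44, edgeR FDR = 0.300), and DESeq2 called it lower, beside 2.58% of all genes.

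Interferon response genes were 20 higher and 17 lower of 37 (median 0.14). Ifit1 measured 2.66 to 6.73 CPM in WT and 86.7, 16.5 and 9.04 CPM in Gfra2-/- (log2 fold change 2.97 ± 1.12, edgeR FDR = 0.471), with library A far above the other two knockout libraries. Antigen presentation genes were 13 higher and 6 lower of 19 (median 0.25). The MHC class I genes H2-D1 and H2-T23 measured 850 to 1572 and 1657 to 2497 CPM (0.92 ± 0.26, edgeR FDR = 0.318), and 59.7 to 136 and 177 to 258 CPM (1.29 ± 0.43, edgeR FDR = 0.387). The peptide transporter gene Tap1, which loads them, went the other way at 287 to 459 CPM in WT and 125 to 196 CPM in Gfra2-/- (-1.15 ± 0.34, edgeR FDR = 0.334). Imprinted genes were 10 higher and 5 lower of 15 (median 0.47), hypoxia factors 4 higher and 10 lower of 14 (median -0.44) and translation initiation genes 13 higher and 26 lower of 39 (median -0.17). DNA methylation and Polycomb regulators were 9 higher and 22 lower of 31 (median -0.36, and -0.07 without WT library C), with 0 at an unadjusted p under 0.05 and 0 called by edgeR or DESeq2.

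Markers of neighbouring cell types differed in part. Of 11 megakaryocyte markers tested, 6 were higher and 5 lower (median log2 fold change 0.08, range -5.13 to 4.23). At an unadjusted p under 0.05 were 3 and 1, beside 4.60% and 4.14% of all genes tested. The platelet chemokine gene Pf4 measured 10.8, 6.12, 1.33 and 0.679 CPM in WT and 43.9, 199 and 24.6 CPM in Gfra2-/- (log2 fold change 4.23 ± 1.12, edgeR FDR = 0.318). The integrin gene Itgb3, given above, was the 1 lower at that unadjusted p. Of 5 erythroid markers tested, 3 were higher and 2 lower, and their list summed to 839 to 1047 CPM in WT and 1256 to 2291 CPM in Gfra2-/-, most of it from the carbonic anhydrase gene Car2. Car2 measured 724 to 981 CPM in WT and 1073 to 2187 CPM in Gfra2-/- (0.88 ± 0.27, edgeR FDR = 0.360), and the endothelial and HSC gene Eng 75.0 to 203 and 302 to 486 CPM (1.38 ± 0.39, edgeR FDR = 0.318). Neutrophil and monocyte markers summed to 632, 571, 3237 and 4022 CPM in WT and to 682, 620 and 1970 CPM in Gfra2-/-. Lymphoid markers had 4 of 19 members tested, endothelial markers 8 of 12, stromal and bone markers 3 of 16, nerve and Schwann cell markers 1 of 12 and mast cell, eosinophil and basophil markers 1 of 10. HSCs themselves express Car2 and Eng, and the part of admixed cells in the results was not tested.

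In the endosteal compartment, the called genes had smaller differences in the same direction. There, the knockout log2 fold changes from the fit of all 4 groups were -0.54 ± 0.29 for Canx, -1.32 ± 0.29 for mt-Nd2, -1.39 ± 0.34 for mt-Nd6, 0.49 ± 0.24 for mt-Co1, -0.47 ± 0.24 for Gm26917 and 0.91 ± 0.38 for CT010467.1 (4 libraries of each genotype; edgeR FDR 0.448 to 0.681, so that none was called). The difference between compartments, central minus endosteal, was -1.02 ± 0.43 for Canx (edgeR FDR = 0.633) and 1.001 ± 0.36 for mt-Co1 (edgeR FDR = 0.552), and the FDR of the other 4 genes was 0.712 to 0.980. Over all 15416 genes of that fit, edgeR called 0 for a genotype effect that differed between compartments, 1074 had an unadjusted p under 0.05, and DESeq2 called 247. An effect particular to the central compartment was therefore not shown by edgeR for any gene. A pair of endosteal libraries labelled Gfra2-/- held 47 and 9 Gfra2 reads, more than any central library of either genotype. Whether their label is wrong, or the reads come from what remains of the deleted gene, was not tested.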

How the data were processed

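Pools of 30 HSCs were lysed with spike-in RNA and made into libraries by Smart-seq2, which amplifies oligo-dT-primed cDNA and keeps no strand and no molecular identifiers, so intervals and floors cover counting error only. The authors aligned reads to GRCm38 (mm10) with GSNAP, keeping unique alignments, and deposited raw read counts per gene from htseq-count (HTSeq 0.5.3p3, no strand), without a filter or scaling. Reads on genes were 826487 to 14716308 per central library. The table also holds 92 spike-in RNAs and 5 summary categories, kept out of library sizes and tests, and 1 further column of reads, which could be given no sample and stayed unused. Its columns were placed in groups through the sample lists of the study and carry no replicate numbers; letters follow the column order.

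The genotypes were compared over the 7 central libraries with edgeR 4.0.16 (R 4.3.3; limma 3.58.1) by filterByExpr, TMM normalization and the quasi-likelihood test, with Benjamini-Hochberg adjustment over all genes tested and an FDR of 0.1, tested on simulated data. The study normalized with DESeq2, here an alternative (version 1.42.0). CPM are counts per 1000000 TMM-scaled reads on genes. The interaction with the compartment was fitted over all 15 mapped libraries. Single values per library were compared by exact permutation tests, two-sided. Symbols and positions came from GENCODE M21 for 45229 of 46078 genes, and promoters from RefSeq (GRCm38.p6).

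Genes named were Gfra2, Gfra1, Ret and Nrtn, those past the FDR, the 12 with the smallest p in each direction, the 3 with the smallest p in each list, sort gate genes, genes with the largest folds at an unadjusted p under 0.01 without overlap, and genes read in every library of 1 group and none of the other. A selection of these is printed (some are not reported here), and the mitochondrial genes, Calr, Hspa5 and the other genes with the promoter element were added after their values were seen. The 50 gene lists were compiled from general knowledge, the ribosomal ones by symbol. The members and lists were chosen with earlier results of these data known. Alternatives covered normalization, filter, test, depth, spike-in share, quality cut-offs, the groups in the fit, the threshold and each library left out in turn.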

Additional observations from a re-analysis of the deposited data

Results flagged for a closer look

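Within the WT central group, 1 library stood far from the other 3 for 5 of the 102 values looked at, where chance flags about 1 in 20 groups. Tpx2 was at 251.1 CPM in WT library D against 27.1 to 37.2 CPM in the others, and Top2a at 701.7 CPM in the same library against 349 to 395 CPM. Mllt3 was at 456.4 CPM in WT library A against 195 to 236 CPM. Hk2, the hexokinase that starts glycolysis, was at 389.0 CPM in WT library C against 67.6 to 100.1 CPM. Smyd2 was at 7.34 CPM in WT library B against 0.679 to 1.81 CPM. The group of 3 Gfra2-/- libraries was too small for this check.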

How the results depend on the processing

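No paired analysis was possible because no replicate number stands on the columns of counts. The number of genes past the FDR depended on the setting, and for the settings that changed the samples or the test the cause was not tested. Against 6 genes (2 higher, 4 lower), DESeq2 called 725, a filter of at least 10 counts in every library 29, limma voom with quality weights 41 and no filter on low counts 134. Leaving out mitochondrial and rRNA-related genes, which removes 5 of the 6 by construction, gave 0, libraries past the study's quality cut-offs (all but WT libraries A and C, with reads on genes and genes of 10 or more counts standing in for measures that the study does not define) gave 0, those with a spike-in share of at least 0.5% gave 1, spike-in size factors gave 2 and an FDR of 0.05 gave 0. Leaving out each library gave 0 to 8 genes: 0 without Gfra2-/- library A or any WT library, 1 without Gfra2-/- library B and 8 without Gfra2-/- library C. Canx was in none of these and passed in 7 of its 19 alternatives, and the other 5 genes passed in 7 to 9 of 18. DESeq2 size factors within edgeR, all 4 groups in one fit, thinned counts and a spike-in covariate gave counts within 1.5 times. For the interaction with the compartment, 0 genes became 247 with DESeq2 and 193 with spike-in size factors, and stayed at 0 without each library. Of 1088 gene values under these settings, with those from spike-in size factors taken relative to the median of all genes (1.75), 1 reversed: mt-Cytb at 0.0773 with at least 10 counts in every library. Uncentred, Canx, mt-Nd6 and Gm26917 turned positive with spike-in size factors. In the 648 values with a library left out, 0 reversed. List medians moved by more than 1 SD of the list's level between libraries in 4 to 11 of 45 or 46 lists when a library was left out, most often without Gfra2-/- library C. By value, the Notch pathway (-0.20) turned to 0.10 without WT library A, the Myc network (-0.37) to 0.10 without WT library C, antioxidant enzymes (-0.25) went to -0.07 without Gfra2-/- library A, hypoxia factors (-0.44) to -0.20 without WT library A, antigen presentation (0.25) to 0.09 without WT library C, imprinted genes (0.47) to 0.30 without WT library A, and TCA cycle and fatty acid oxidation (0.32) to 0.20 without WT library A. The shallow WT libraries limit what can be said of low genes.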
